A study of Mus musculus with 2 samples.

Results

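The 39 genes described here are those of the fat cell: secreted adipokines, the coat proteins and lipases of the lipid droplet, the enzymes and transporters that load it, the transcription factors that drive adipocyte differentiation, and 7 genes of thermogenic brown fat (*Ucp1*, *Cidea*, *Dio2*, *Ppargc1a*, *Elovl3*, *Prdm16* and *Otop1*). They were chosen by name, among 18193 genes with at least 1 probe set of their own on the array, and a probe set was used where the annotation listed it with a single gene. Of the 39, 36 had such a probe set, 74 probe sets in all. *Plin1*, *Acsl1* and *Adrb3* were listed with none and were not analysed here. *Adipoq*, *Lep*, *Retn* and *Serpina12*, secreted products known best from white fat, were taken as the white members, and the other 28 as shared between fat types.

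RNA from the vagina was measured on 1 Affymetrix mouse expression array for WT and 1 for *Fbln5*-/- mice. Both were females of the C57/Bl6 background, labelled as 6 months old, ovariectomized and given estradiol at 50 µg/kg/d for 3 d, so no array of an intact or untreated animal was compared. Ovariectomy is given as on 11 d in the labels and as at 2 weeks in the series text. *Fbln5* encodes fibulin-5, an elastic fiber protein, and the comparison asks which transcripts differ in the vaginal wall that lacks it. With 1 array per genotype there is no replicate, and no p-value or error between animals can be given for any value below.

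White adipocytes store triglyceride in 1 large droplet and release fatty acids and adipokines. Brown adipocytes hold many small droplets and burn fatty acids in mitochondria uncoupled by UCP1, the protein that defines them. Both cell types depend on the nuclear receptor PPARγ and on C/EBP factors, and loose connective tissue around pelvic organs normally contains fat. In RNA from a piece of whole tissue, more fat cells and more transcript per fat cell cannot be told apart.

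The signal of *Fbln5* itself was 410.4 on the WT and 30.4 on the *Fbln5*-/- array, and the sources do not say whether the probe set covers deleted sequence. Markers of the labelled tissue were strong on both arrays, with *Krt13*, a keratin of stratified epithelium, at 19999 and 21197, and *Acta2*, smooth muscle actin, at 15045 and 16566. The control probe set at the 5′ end of *Gapdh* was 21.7-fold lower on the *Fbln5*-/- array, at 17262 against 794.7, while its 3′ end was at 13329 and 13829. The middle *Gapdh* control probe set was 2.23-fold lower, at 15720 against 7058. Those at the 5′ end and middle of *Actb* were 3.66-fold and 2.33-fold lower, while its 3′ end was at 13392 and 11845. A lower value on the *Fbln5*-/- array therefore stands beside these controls, whose part in it was not tested. Outside the control probe sets, the brightest *Actb* probe set read 8440 and 17020, a log2 ratio of 1.01, and another had one of −0.43. All signals are MAS5 intensities scaled to a common median, and 100, called the limit below, was the lowest signal taken to give a level.

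The upstream sequences of 3 members are shown because these were, among members with a sequence at hand, the 2 with the largest ratio among those that reached the limit on both arrays (*Adipoq* and *Pnpla3*) and the brown-fat member with the largest bound (*Ucp1*). *Car3* and *Lpl*, whose ratios were larger than that of *Pnpla3*, are named only. Each is the 250 bases before the RefSeq transcript start on the plus strand of GRCm38.p6, at chr16:23146286-23146535 for *Adipoq*, chr15:84167566-84167815 for *Pnpla3* and chr8:83290098-83290347 for *Ucp1*. Capitals mark matches, on either strand, to TATAAA, to CCAAT, to the nuclear receptor half-site AGGTCA or to the C/EBP-type pattern TTNNGNAA.
Adipoq: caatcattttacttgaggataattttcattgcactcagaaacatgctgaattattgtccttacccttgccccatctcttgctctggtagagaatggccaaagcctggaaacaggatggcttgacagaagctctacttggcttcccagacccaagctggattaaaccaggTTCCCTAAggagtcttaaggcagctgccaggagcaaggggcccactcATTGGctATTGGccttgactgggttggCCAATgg
Pnpla3: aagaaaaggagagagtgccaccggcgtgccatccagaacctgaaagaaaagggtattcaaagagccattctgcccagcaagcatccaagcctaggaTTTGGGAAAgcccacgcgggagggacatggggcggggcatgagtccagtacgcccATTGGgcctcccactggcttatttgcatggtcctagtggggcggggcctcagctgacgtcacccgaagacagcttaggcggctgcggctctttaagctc
Ucp1: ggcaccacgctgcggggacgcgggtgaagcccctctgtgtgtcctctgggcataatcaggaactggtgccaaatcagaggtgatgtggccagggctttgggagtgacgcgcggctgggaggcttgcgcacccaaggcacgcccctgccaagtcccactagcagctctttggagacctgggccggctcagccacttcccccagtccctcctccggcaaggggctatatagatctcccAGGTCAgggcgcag
*Adipoq* held 3 CCAAT matches and 1 C/EBP-type match, *Pnpla3* held 1 CCAAT match and a pair of overlapping C/EBP-type matches, and *Ucp1* held 1 half-site. Over the 28 members with a sequence, the half-site was found in 6 (21.4%) against 13.8% of 27025 promoters, the C/EBP-type pattern in 11 (39.3%) against 36.9%, CCAAT in 9 (32.1%) against 34.5% and TATAAA in 3 (10.7%) against 13.0%. The full direct repeat, a pair of AGGTCA half-sites with 1 base between them, was in 0 of the 28 and in 10 of all promoters. These matches describe letters in a window and no binding was measured.

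Of the 36 genes, 29 had a probe set that reached 100 on either array, and each was represented by its brightest probe set. Of these, 14 had a ratio of 2 or more in favour of *Fbln5*-/- and 1 had such a ratio in favour of WT, where 7.21% of all 11934 measured genes were higher and 4.77% lower. With signals under 100 set to 100 the members gave 12 and 1, against 5.8% and 3.95% of all genes. Both pairs of counts lean to higher values by construction, because 7 of the 29 were below the limit in WT. These 7 were measured only through the *Fbln5*-/- array, so with WT signals set to 100 they could not be lower. Of all 604 genes that entered in this way, 47% were 2-fold or more higher. Among the 21 members that reached the limit on both arrays, 8 were higher by 2-fold or more and 1 was lower, against 5.26% and 3.59% of 10976 genes, and 12 lay within 2-fold. The same 8 and 1 were found among the 22 members that reached it on the WT array, where the background was 5.09% higher and 5.02% lower. The median log2 ratio of *Fbln5*-/- over WT was 0.98 over the 29 (0.62 with signals under 100 set to 100) and 0.53 over the 21, against medians of 0.16 and 0.15 for the corresponding sets of all genes. Both medians over the 29 carry the same lean.

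**Figure D1:**
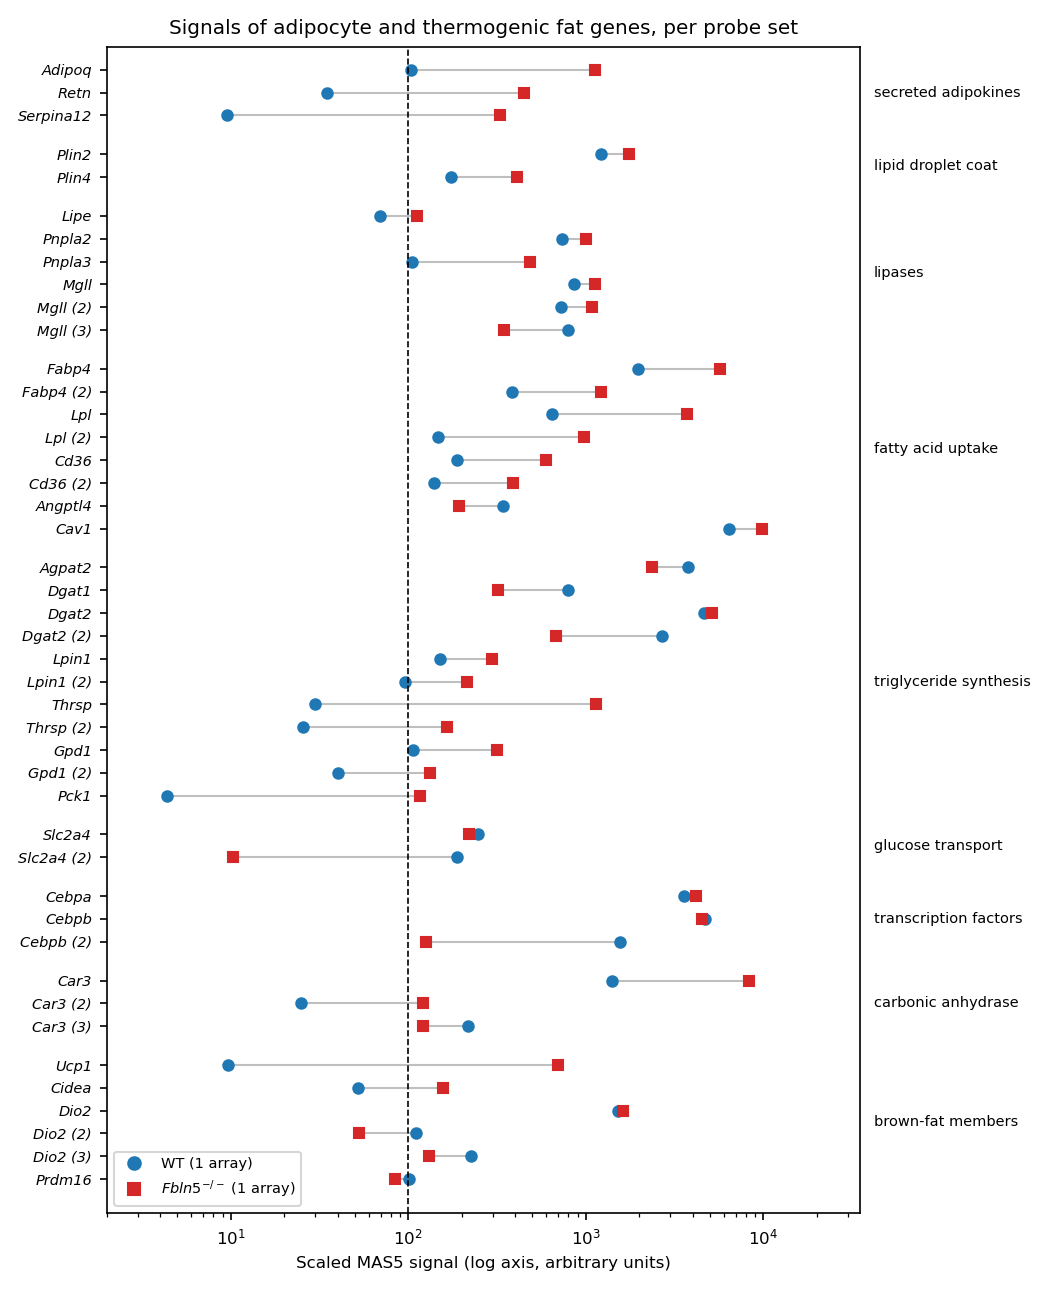
Scaled signal (log axis) of the 44 member probe sets that reached 100 on either array, with circles for the WT and squares for the *Fbln5*-/- array, 1 array each, and a dashed line at 100. Numbers in brackets mark further probe sets of a gene in order of the table, and *Adipoq*, *Lpl*, *Fabp4* and *Ucp1* lie well to the right on the *Fbln5*-/- array while *Cebpa* and *Dgat2* stay close together at their brightest probe sets.

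The white members were higher on the *Fbln5*-/- array wherever they could be measured. *Adipoq* encodes adiponectin, the most abundant hormone of the adipocyte, and its signal was 104.1 on the WT and 1131 on the *Fbln5*-/- array. This was a 10.9-fold difference, the 25th largest ratio of the 10976 genes that reached the limit on both arrays, with the WT value barely above the limit. *Retn*, which encodes resistin, had signals of 34.8 and 449.1 and was at least 4.49-fold higher. *Serpina12*, which encodes the adipokine vaspin, had signals of 9.53 and 330.3 and was at least 3.30-fold higher, while its other probe set read under 2 on both arrays. *Lep*, which encodes leptin, had signals of 6.42 and 33.6, both under 100, so no difference could be given for this hormone. For *Retn* and *Serpina12*, which were below the limit in WT, a higher value was the only one that could be seen.

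Genes for the capture of fatty acids at the cell surface and in the cytosol included 3 that were 2-fold or more higher at both of their measured probe sets. *Lpl* encodes lipoprotein lipase, which frees fatty acids from circulating triglyceride, and its signal was 644.5 on the WT and 3740 on the *Fbln5*-/- array, 5.80-fold higher. The second *Lpl* probe set read 147.7 and 978.7, 6.63-fold higher. *Fabp4*, the fatty acid binding protein of adipocytes, had signals of 1980 and 5703, and at a second probe set 386.0 and 1223, giving 2.88-fold and 3.17-fold. *Cd36*, the fatty acid translocase, was 3.18-fold higher at 189.0 and 601.7, and 2.78-fold higher at its other measured probe set. Each of these genes thus gave close ratios at its measured probe sets. *Cav1*, which encodes caveolin-1 and is strong in fat, endothelium and muscle, differed by 1.53-fold (6386 and 9792). *Angptl4*, a secreted inhibitor of lipoprotein lipase, went the other way, with signals of 344.0 and 194.0 and a log2 ratio of −0.83, which is under 2-fold.

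*Fabp4*, *Cd36* and *Cav1* are also used by capillary endothelium, and the part of endothelium in their signals was not tested. Of 14 endothelial genes measured, 0 were higher and 1 was lower by 2-fold or more, beside 7.21% and 4.77% of all genes. Their median log2 ratio was 0.00, and their summed signal was 12513 on the WT and 9927 on the *Fbln5*-/- array. *Ramp2*, *Eng* and *Esam* had the highest signals of that list, with log2 ratios of −0.73, −1.22 and 0.17, and a second *Eng* probe set had one of −0.00. Without *Ramp2* and *Eng*, the summed signal of the other 12 was 5548 on the WT and 6070 on the *Fbln5*-/- array. *Gpihbp1*, which holds lipoprotein lipase on the capillary wall and was named after its value was seen, had signals of 246.3 and 170.5.

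Genes of the droplet itself were split between measured and unmeasured. *Plin4*, a coat protein of nascent droplets, had signals of 175.4 and 410.9, 2.34-fold higher on the *Fbln5*-/- array. *Plin2*, the coat protein found on droplets of most cell types, had signals of 1218 and 1759 and stayed within 2-fold. *Plin5* read 18.8 and 55.6 at 1 probe set and 7.68 and 49.7 at the other, and *Cidec*, which fuses droplets into the large one of white fat, read 36.3 and 81.6. Both were under 100 on both arrays, so no ratio is given.

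Among lipases, *Pnpla3*, a lipid droplet hydrolase that is induced by feeding, had signals of 104.4 and 483.7. It was 4.63-fold higher on the *Fbln5*-/- array, again from a WT value just above the limit. *Pnpla2*, which encodes adipose triglyceride lipase and starts lipolysis, had signals of 740.1 and 1004 and a log2 ratio of 0.44. *Lipe*, which encodes hormone-sensitive lipase, read 69.0 and 112.8 and was at least 1.13-fold higher. *Mgll*, which encodes monoglyceride lipase, had log2 ratios of 0.39 and 0.59 at its brighter probe sets and −1.21 at the remaining one (799.2 and 345.5). At their brightest probe sets *Pnpla2* and *Mgll* thus lay within 2-fold, while *Lipe* has only a lower bound.

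Triglyceride synthesis was not uniform. *Thrsp*, the lipogenic gene also called Spot 14, had signals of 29.8 and 1140 at its brightest probe set and 25.5 and 165.7 at another, so it was at least 11.4-fold and at least 1.66-fold higher. *Gpd1*, the glycerol-3-phosphate dehydrogenase that supplies the glycerol backbone, had signals of 106.6 and 317.6, 2.98-fold higher, and a second probe set read 40.3 and 133.3. *Pck1*, which encodes the cytosolic enzyme of glyceroneogenesis, read 4.38 and 116.5, at least 1.17-fold higher, and its other probe sets were under 100 on both arrays. *Lpin1*, a phosphatidate phosphatase, had a log2 ratio of 0.98 at 150.5 and 296.3, just inside 2-fold, and was at least 2.16-fold higher at its second probe set. *Plin4*, with a log2 ratio of 1.23, was the nearest member outside it among those that reached the limit on both arrays.

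The acyltransferases did not follow. *Dgat1*, which adds the last acyl chain, had signals of 794.6 and 322.2, with a log2 ratio of −1.30, and was the 1 member at least 2-fold lower at its brightest probe set. *Agpat2*, an earlier enzyme of the pathway, had signals of 3786 and 2359 (log2 ratio −0.68). *Dgat2* had signals of 4630 and 5145 at its brightest probe set and 2680 and 683.7 at the other, giving log2 ratios of 0.15 and −1.97. *Dgat1* and *Agpat2* had 1 measured probe set each, and their values stand beside the *Gapdh* 5′ control given above.

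*Car3*, the carbonic anhydrase that makes up much of the soluble protein of adipocytes and of slow muscle fibers, had signals of 1402 and 8349. This was a 5.96-fold difference and the 50th largest of genes that reached the limit on both arrays, next to *Lpl* at the 52nd and *Pnpla3* at the 65th place. A second *Car3* probe set read 24.9 and 121.3, and the remaining one past the limit ran the other way at 217.1 and 121.7. Of 16 skeletal muscle genes measured, 3 were higher and 0 lower by 2-fold or more, beside 7.21% and 4.77% of all genes. Their median log2 ratio was 0.48, and their summed signal was 11915 and 14989. With both arrays at the limit 2 of 14 were higher, beside 5.26% of all genes, with a median of 0.43. The list includes *Myh1*, a fast myosin named after its value was seen, with signals of 570.2 and 1923. It also holds *Myh7*, a slow myosin, which read 19.2 and 79.8, under 100 on both arrays. *Acta1*, *Des* and *Tnnc2*, its members of highest signal, had log2 ratios of 0.35, −0.63 and 0.42, and the part of muscle in the *Car3* value was not tested. *Slc2a4*, which encodes the insulin-regulated glucose transporter of fat and muscle, read 246.8 and 218.8 at its brighter probe set, while the other was under the limit on the *Fbln5*-/- array (188.9 and 10.3, at least 1.89-fold lower).

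The transcription factors of adipocyte differentiation showed no 2-fold difference at their brightest probe sets. *Cebpa* had signals of 3599 and 4206 (log2 ratio 0.22). *Cebpb* had signals of 4685 and 4500 (log2 ratio −0.06), but its second probe set was 12.4-fold lower at 1569 and 126.8. *Pparg*, which encodes PPARγ, had signals of 19.0 and 81.1, under 100 on both arrays, so the array gave no level for the receptor that defines the lineage. Both C/EBP factors are also strongly used by stratified epithelium, and their signals cannot be assigned to fat.

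Of the 7 brown-fat members, 4 were measured. *Ucp1*, the uncoupling protein, had signals of 9.63 on the WT and 696.3 on the *Fbln5*-/- array, at least 6.96-fold higher, from a single probe set. *Cidea*, a droplet protein abundant in brown fat, had signals of 52.1 and 157.8, at least 1.58-fold higher. Both were below the limit in WT, so a higher value was the only one that could be seen. *Dio2*, the deiodinase that makes active thyroid hormone, had signals of 1513 and 1625 at its brightest probe set, and its others read 224.8 and 131.5, and 110.6 and 52.8. *Prdm16*, a factor of the brown lineage, read 100.7 and 84.7. The remaining 3 were under 100 on both arrays. *Elovl3*, a fatty acid elongase, read 59.8 and 93.8, *Otop1*, a proton channel, read 15.4 and 57.3, and the 5 probe sets of *Ppargc1a*, the coactivator of mitochondrial biogenesis, reached at most 29.7 on the WT and 66.4 on the *Fbln5*-/- array. The high signal of *Ucp1* was thus not accompanied by measurable signals of *Ppargc1a*, *Elovl3* or *Otop1*. With signals under 100 set to 100, *Ucp1* was the 1 brown-fat member higher by 2-fold or more.

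**Figure D2:**
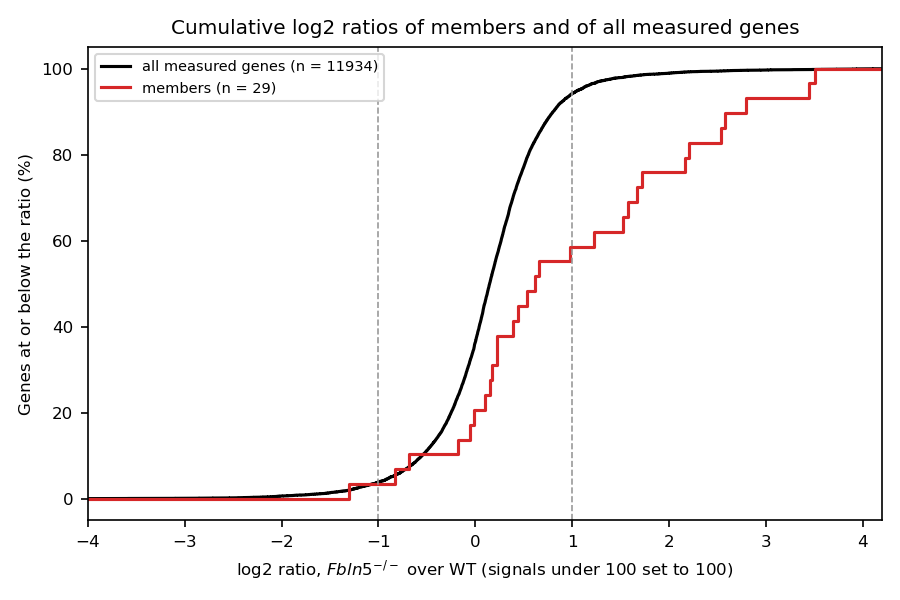
Cumulative share of genes (%) by log2 ratio of *Fbln5*-/- over WT with signals under 100 set to 100, for all 11934 measured genes (black) and the 29 measured members (red), 1 array per genotype. Dashed lines mark a 2-fold difference, and the members lie to the right, with 12 of them higher and 1 lower by 2-fold or more. Of the 29, 7 were measured only through the *Fbln5*-/- array and could not be lower.

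Agreement between probe sets of a gene is the nearest the arrays give to a repeated measurement. Over 4114 genes the log2 ratios of such probe sets had a pooled SD of 0.52. Of the members, 12 had more than 1 probe set past the limit. In *Lpl*, *Fabp4* and *Cd36* the probe sets differed by at most 0.20 on the log2 scale. The second probe sets of *Gpd1* and *Lpin1* were under 100 in WT and give bounds only, so their agreement could not be judged. With signals under 100 set to 100, *Gpd1* had log2 ratios of 1.58 and 0.41, and *Lpin1* 0.98 and 1.11. In *Slc2a4*, *Cebpb*, *Dgat2*, *Mgll* and *Dio2* the brightest probe set was within 2-fold and another was lower by 2-fold or more, with ranges from 1.17 to 4.03. *Slc2a4* and *Dio2* reached this through a signal under 100 on the *Fbln5*-/- array. Counted by probe set, 21 of 44 were higher and 6 lower by 2-fold or more, where 6.29% of all 19627 probe sets were higher and 8.65% lower. The count of higher ones leans upward by construction. Probe sets under 100 in WT entered only through the *Fbln5*-/- array, so they could only be higher. Likewise, those under 100 on the *Fbln5*-/- array could only be lower. The lower probe sets stand beside the 5′ control of *Gapdh*, and where each lies along its transcript was not analysed here.

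**Figure D3:**
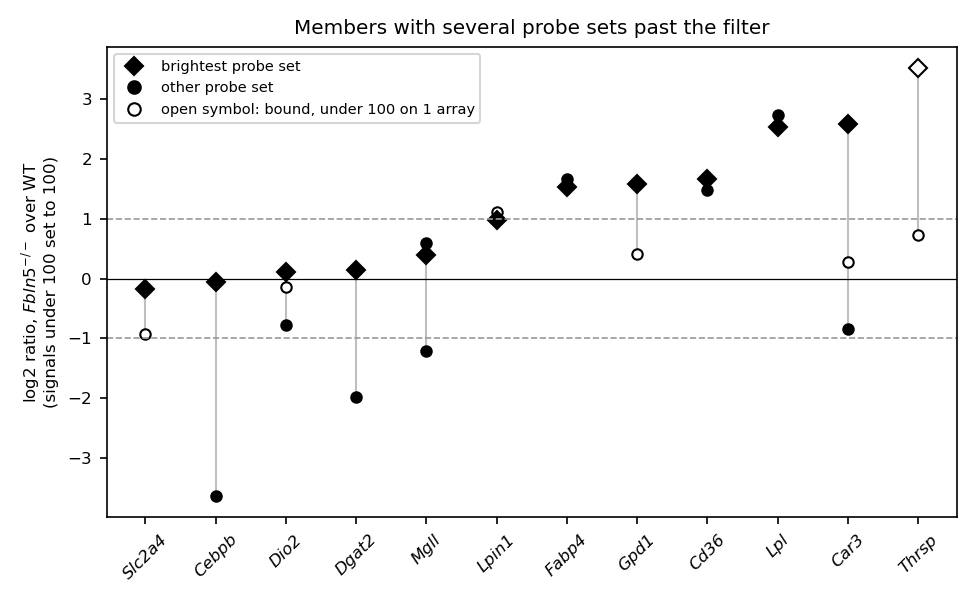
Log2 ratio of *Fbln5*-/- over WT (1 array each, signals under 100 set to 100) for each measured probe set of the 12 members with several. Diamonds are the brightest probe set of a gene, circles the others, open symbols bounds, and dashed lines a 2-fold difference; *Lpl*, *Fabp4* and *Cd36* agree above 1, while *Cebpb* and *Dgat2* have one probe set near 0 and another below −1.9.

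Other genes of the adipocyte, from a separate list of 30, gave 5 of 23 measured that were higher and 0 that were lower by 2-fold or more, with a median log2 ratio of 0.48 (4 and 0.43 with signals under 100 set to 100), beside the 7.21% and 4.77% of all genes. Of the 19 that reached the limit on both arrays, 2 were higher and 0 lower, with a median of 0.40, beside 5.26% and 3.59% of all genes. Its members of highest signal were *Fabp5*, a fatty acid binding protein of epithelium and fat, *Bscl2*, which encodes the droplet protein seipin, and *Adipor1*, an adiponectin receptor, with log2 ratios of 0.08, 0.43 and 0.50. The 5 that were higher, named after their values were seen, were *Rbp4*, the retinol carrier (164.2 and 928.0), *Pde3b*, the insulin-regulated phosphodiesterase (log2 ratio 1.18), *G0s2*, an inhibitor of adipose triglyceride lipase (at least 2.59-fold), *Ces1d*, a carboxylesterase (at least 3.01-fold), and *Trarg1*, a regulator of glucose transport (at least 1.35-fold). *G0s2*, *Ces1d* and *Trarg1* were below the limit in WT. *Aqp7*, *Mrap* and *Orm1* were under 100 on both arrays.

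Of 15 genes of fatty acid synthesis measured, 2 were higher and 1 lower by 2-fold or more, beside 7.21% and 4.77% of all genes. Their median log2 ratio was 0.33. *Scd2*, *Acly* and *Me1*, an acyl desaturase, ATP citrate lyase and malic enzyme, were those of highest signal, with log2 ratios of 0.20, 0.17 and 1.11. The other *Scd2* probe sets ran far lower on the *Fbln5*-/- array, at 7194 and 473.7 and at 614.8 and 99.8, and the second *Me1* probe set had a log2 ratio of 0.51. *Scd1*, the desaturase of fat and sebaceous gland, was named after its value was seen and had signals of 939.0 and 10444, while *Fasn*, fatty acid synthase, had signals of 2644 and 2236. Of 21 genes of fatty acid oxidation and brown fat mitochondria, 4 were higher and 0 lower by 2-fold or more, beside the same shares of all genes. With signals under 100 set to 100 these were 2 and 0, beside 5.8% and 3.95% of all genes. *Cycs*, *Hadhb* and *Acadl*, those of highest signal, had log2 ratios of 0.09, 0.63 and 0.16. The 4 were *Cox8b*, a cytochrome oxidase subunit of brown fat and striated muscle (79.4 and 380.9), *Cox7a1* (80.6 and 173.3), *Esrrg* (72.4 and 189.1) and *Pdk4* (94.2 and 215.7). They were named after their values were seen, and each was below the limit in WT. Among the 15 genes of this list that reached the limit on both arrays, 0 differed by 2-fold, beside 5.26% higher and 3.59% lower of all genes.

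Of 12 preadipocyte and fibroblast genes measured, 1 was 2-fold or more higher (*Fabp4*, which is also a member) and 1 was lower (*Cd34*, with signals of 5822 and 2840), with a median log2 ratio of 0.55. For this list and those that follow here, the shares of all genes were 7.21% higher and 4.77% lower. *Col3a1*, *Dcn* and *Col1a1* had log2 ratios of 0.26, 0.40 and 0.11, and a second *Col3a1* probe set had one of 1.24. Sebaceous glands express several of the same lipid genes. Of 14 sebaceous genes, 10 had a probe set of their own, and *Awat1*, *Awat2*, *Soat1* and *Dgat2l6* had none. Of the 5 measured, *Mgst1* was 2-fold or more higher (log2 ratio 1.12). *Fads2b*, *Elovl4* and *Plin2*, the last of them also a member, had log2 ratios of 0.28, 0.44 and 0.53. Among those with a probe set, *Mc5r*, *Scd3* and *Krt79*, which are more restricted to sebocytes, were under 100 on both arrays. For smooth muscle 1 of 10 genes was higher by 2-fold or more, with a median log2 ratio of 0.11, and *Acta2*, *Tagln* and *Mylk* had log2 ratios of 0.14, −0.02 and 0.38, and the other *Mylk* probe sets had −0.85 and −1.37. For basal epithelium 0 of 10 were higher and 1 was lower, with a median of 0.05, and *Krt5*, *Krt14* and *Krt15* had log2 ratios of −0.00, 0.52 and 0.10. Cornified epithelium had 3 of 17 genes higher by 2-fold or more and a median of 0.27, with *Krt13*, *Krt10* and *Cnfn* at 0.08, 0.04 and −0.11.

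**Figure D4:**
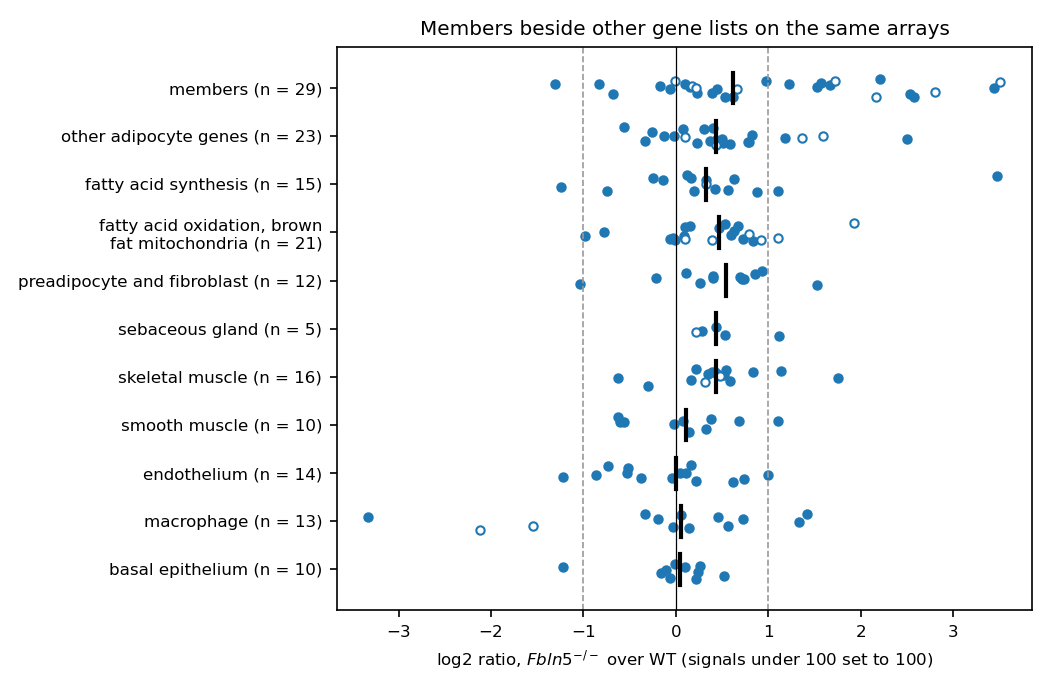
Log2 ratio of *Fbln5*-/- over WT (1 array each, signals under 100 set to 100) of the members and of 10 other gene lists, with filled circles where both signals reached the limit, open circles for bounds, black bars for medians and dashed lines at a 2-fold difference. The members have a median of 0.62, beside 0.55 for preadipocyte and fibroblast, 0.47 for fatty acid oxidation and 0.44 for sebaceous gland genes. The value of the members includes 7 that could not be lower. Over the 21 members at the limit on both arrays it is 0.53, while all 12 preadipocyte and fibroblast genes reached it on both. Beige adipocyte genes, with a median of 0.95 over 4, of which 1 reached the limit on both arrays, are among the lists not drawn. Other adipocyte genes and skeletal muscle are each at 0.43, and endothelium is at 0.00.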

How the data were processed

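RNA from the vagina of 1 WT and 1 *Fbln5*-/- sample was measured on 1 Affymetrix mouse genome array each. The methods name 2 animals per group, and whether their RNA was pooled is not stated. Each array holds 45101 probe sets, for which the authors deposited linear MAS5 intensities (the tool per the submitters' processing notes, with no version stated there). A mean trimmed by 2% at either end was 500.0 in WT and in *Fbln5*-/-, so the values had been scaled before deposit.

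The medians of both arrays were set to a common value, as the percentile normalization of the methods does (factors 0.972 and 1.03), and 1 signal of 0 was set to 0.1. Probe sets that reached 100 on either array were kept, 64 control probe sets were left out, and each gene took its value from the brightest probe set (highest mean signal). Of the probe sets, 54.8% were under 100 on the WT and 55.9% on the *Fbln5*-/- array as deposited. The platform annotation gave 34958 probe sets 1 gene symbol and 932 several, and 9211 were not in it. Identifiers of 34754 matched the GRCm38.p6 gene table, used for current names. No probe set listed with several genes named a member. Where 1 array was under 100 the fold is a bound against 100, and where both were, no fold is given. Detection calls were not used.

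With 1 array per genotype no test was made, and the precision of each ratio is limited by there being so few arrays. Every member is accounted for. From each other list the 3 genes of highest mean signal were named. The members and the 14 other lists (other adipocyte, fatty acid synthesis, fatty acid oxidation, beige adipocyte, preadipocyte and fibroblast, sebaceous gland, skeletal and smooth muscle, endothelium, macrophage, cornified and basal epithelium, mammary gland and liver genes) were chosen with earlier results of these data known. Upstream sequences came from RefSeq, the first listed start of each gene. The steps were tested on simulated arrays, with differences planted only in genes at the limit on both arrays and alike at all probe sets of a gene. That test does not cover signals under 100 or probe sets that disagree. Tables were handled with pandas 2.3.3 and numpy 2.4.6 in Python 3.11.15, and figures drawn with matplotlib 3.10.9. Alternatives covered scaling, filters, a floor, 32 added to each signal, the choice of probe set and a 3-fold threshold.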

Additional observations from a re-analysis of the deposited data

How the results depend on the processing

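With 1 array per genotype no array could be left out. No paired analysis was possible because each group holds 1 array. Under 13 alternatives, 87 of 101 counts and medians of the member groups stayed within 1.5 times the count or within 0.52 (the pooled SD of probe sets of a gene) of the log2 median, and 14 did not. Members at least 2-fold higher numbered 14, and 8 when only genes that reached 100 on both arrays were kept, which left 1 white and 0 brown-fat members in that count. The share of all genes that were 2-fold or more higher was 7.21% in the main setting and 5.26% with 100 reached on both arrays. It was 6.70% at 200 or more on at least 1 array, 11.3% without a filter and 5.80% with signals under 100 set to 100. Brown-fat members at least 2-fold higher numbered 2, and 1 at 200 or more on at least 1 array, 4 without a filter and 1 with signals under 100 set to 100. Their median log2 ratio of 0.85 became 1.62 with quantile normalization, 3.14 at 200 or more on at least 1 array, 0.10 with the limit reached on both arrays and 1.60 without a filter, over 3, 2, 1 and 7 genes. Members at least 2-fold lower numbered 1, and 3 with the mean over probe sets, 0 without _x_at, _s_at and _a_at probe sets and 0 at a 3-fold threshold. Of all genes, 569 of 11934 were lower in the main setting and 835 of 11934 with that mean. At a 3-fold threshold 211 of 11934 were lower, and 521 of 10187 without those probe sets. The median of shared members was 0.66 and became 1.20 without those probe sets. Counts have no sign, so a change of sign was possible for medians only, and each median that moved stayed positive. Centring the ratios on the probe sets that reached 100 on both arrays moved every log2 ratio by −0.11 and the split of all genes from 861 higher and 569 lower to 679 and 698, and the mean over probe sets moved it to 779 and 835. As deposited the split was 723 and 667. Of 220 ratios of single member probe sets under other scalings or with 32 added, 9 moved by more than 0.52, each with 32 added. Adding 32 cannot reverse which signal is larger, and the other scalings moved each ratio by less than 0.52. The sign of a 2-fold difference was therefore not tested by these settings.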

Other observations

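Genes linked to beige adipocytes were mostly under the limit on the WT array. Of 8, 4 were measured, and *Tmem26*, a surface protein used as a beige marker, was under 100 on the WT and at 367.6 on the *Fbln5*-/- array, a ratio of at least 3.68. *Slc27a1*, a fatty acid transporter, read 92.7 and 196.1, *Tbx1* read 97.8 and 189.8, and *Tnfrsf9* had signals of 126.0 and 146.9. At these probe sets *Tmem26*, *Slc27a1* and *Tbx1* were under 100 in WT. They entered only through the *Fbln5*-/- array, so each was higher by construction. With signals under 100 set to 100, 1 of the 4 was 2-fold or more higher, beside 5.8% of all genes. *Cited1* (51.3 and 5.24), *Hoxc9* (24.9 and 59.1) and *Shox2* (30.7 and 60.1) were under 100 on both arrays.

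Milk genes of the mammary gland, another fat-rich tissue, were under 100 on both arrays for *Csn1s1*, *Csn2*, *Csn3*, *Wap* and *Lalba*, and the 3 genes of that list that were measured, *Krt8*, *Krt18* and *Xdh*, had log2 ratios of 0.04, 0.01 and 0.24. In the liver list, *Cyp2e1*, a cytochrome P450 that is also used by adipocytes, was the 1 gene measured, with signals of 86.9 and 667.0, while *Alb*, *Ttr* and *Apoa1* read 43.3, 18.8 and 35.3 on the WT and 15.6, 18.8 and 9.97 on the *Fbln5*-/- array. Of 13 macrophage genes, 2 were higher and 3 lower by 2-fold or more, beside 7.21% and 4.77% of all genes. Their median log2 ratio was 0.06. *Cd9*, *Lyz2* and *Csf1r* had log2 ratios of 0.06, −0.19 and 0.56. The 2 higher genes were *Mrc1* (810.8 and 2175) and *Cd163* (117.3 and 295.0), receptors of resident tissue macrophages, and the lower ones were *C1qa* (1847 and 184.3), *Itgam* and *Trem2*, named after their values were seen. The other chains of the same complement protein, *C1qb* and *C1qc*, had log2 ratios of 0.14 and −0.33.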
